A study of Rattus norvegicus with 8 samples.

Results

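The genes described here are the translation initiation and elongation factors of the rat, taken as every probe of the deposited table whose gene symbol begins with Eif or Eef followed by a number. The rule found 95 of 23609 probes, which belong to 57 of the 10881 genes with a usable symbol; 93 of the probes carried a value on every array, and each of the 57 genes had at least 1 of these. The arrays compare the cortex on the operated side of the brain between 4 Sprague Dawley rats with a transient occlusion of the middle cerebral artery (tMCAO) and 4 sham-operated Sprague Dawley rats, all collected at 24 h. In this stroke model the artery that feeds much of the cortex is blocked and then reopened. The labels give no age or sex and no length of the occlusion, the cortex was cut from a section 4 mm thick, and every animal was hybridised in the Cy5 channel of its own array against a Cy3-labelled pool of sham cortex RNA. The comparison asks which genes were up- or downregulated in the cortex after the occlusion, and all values below are log2 ratios of an animal to that pool, or differences of such ratios (tMCAO minus sham, 4 animals per group), unless a signal is named.

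Translation of an mRNA begins when eIF2 brings the initiator tRNA to the small ribosomal subunit, eIF3 and the eIF4 factors recruit the mRNA by its cap, and eIF1, eIF1A, eIF5 and eIF5B set the start codon and join the large subunit. Elongation then repeats with eEF1A delivering aminoacyl-tRNA, the eEF1B complex recharging eEF1A with GTP, and eEF2 moving the ribosome. Both ends are switched by phosphorylation: kinases of eIF2-alpha and the eIF4E-binding proteins (4E-BPs) hold back initiation, and eEF2 kinase holds back elongation; block of protein synthesis through eIF2-alpha is a known early event in ischemic brain. The arrays measure mRNA only, so none of these phosphorylations is seen here.

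The mRNAs of translation factors were more often higher than lower in tMCAO cortex. At an adjusted p under 0.05 (limma, Benjamini-Hochberg over all 17928 features), 25 of 57 genes (43.9%) rose, 2 (3.51%) fell and 30 were not called; at an unadjusted p under 0.05, 32 were higher and 5 lower. These counts depended on the setting: 14 were higher and 1 lower without tMCAO replicate 3 and also with quantile-normalized ratios, 16 and 1 without sham replicate 1, 3 or 4, and 30 and 7 without tMCAO replicate 4; 1 was lower without sham replicate 2 or tMCAO replicate 2 too. Quantile normalization gives every array the same distribution of ratios. The SD of the log2 ratios was 0.231 to 0.259 on sham and 0.368 to 0.741 on tMCAO arrays, a difference that this setting removes. Over all features 15.0% were called higher and 16.0% lower, 31.0% together. The median difference of the 57 genes was 0.23, against -0.05 over all features. On single arrays the median log2 ratio of the 57 genes was -0.07, 0, -0.007 and 0 in sham replicates 1 to 4, and 0.17, 0.20, 0.18 and 0.13 in tMCAO replicates 1 to 4. All 4 tMCAO medians thus lay above all 4 sham medians. In 28 genes every tMCAO animal lay above every sham animal and in 3 every one lay below, where all features gave 13.8% and 16.2% (30.1% together). Of the 41 genes with a mean Cy5 signal of at least 0.5, 20 rose and 1 fell, against 20.0% and 22.3% of all features that bright. Of the 16 dimmer genes 5 rose and 1 fell (31.2% and 6.25%). The share over all features that dim was not counted. Of all probes with a signal under 0.2, 8.44% were higher and 9.95% lower. Most changes were small: the 57 differences ran from -1.06 to 1.39, and the largest rise was 2.62-fold.

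**Figure D1:**
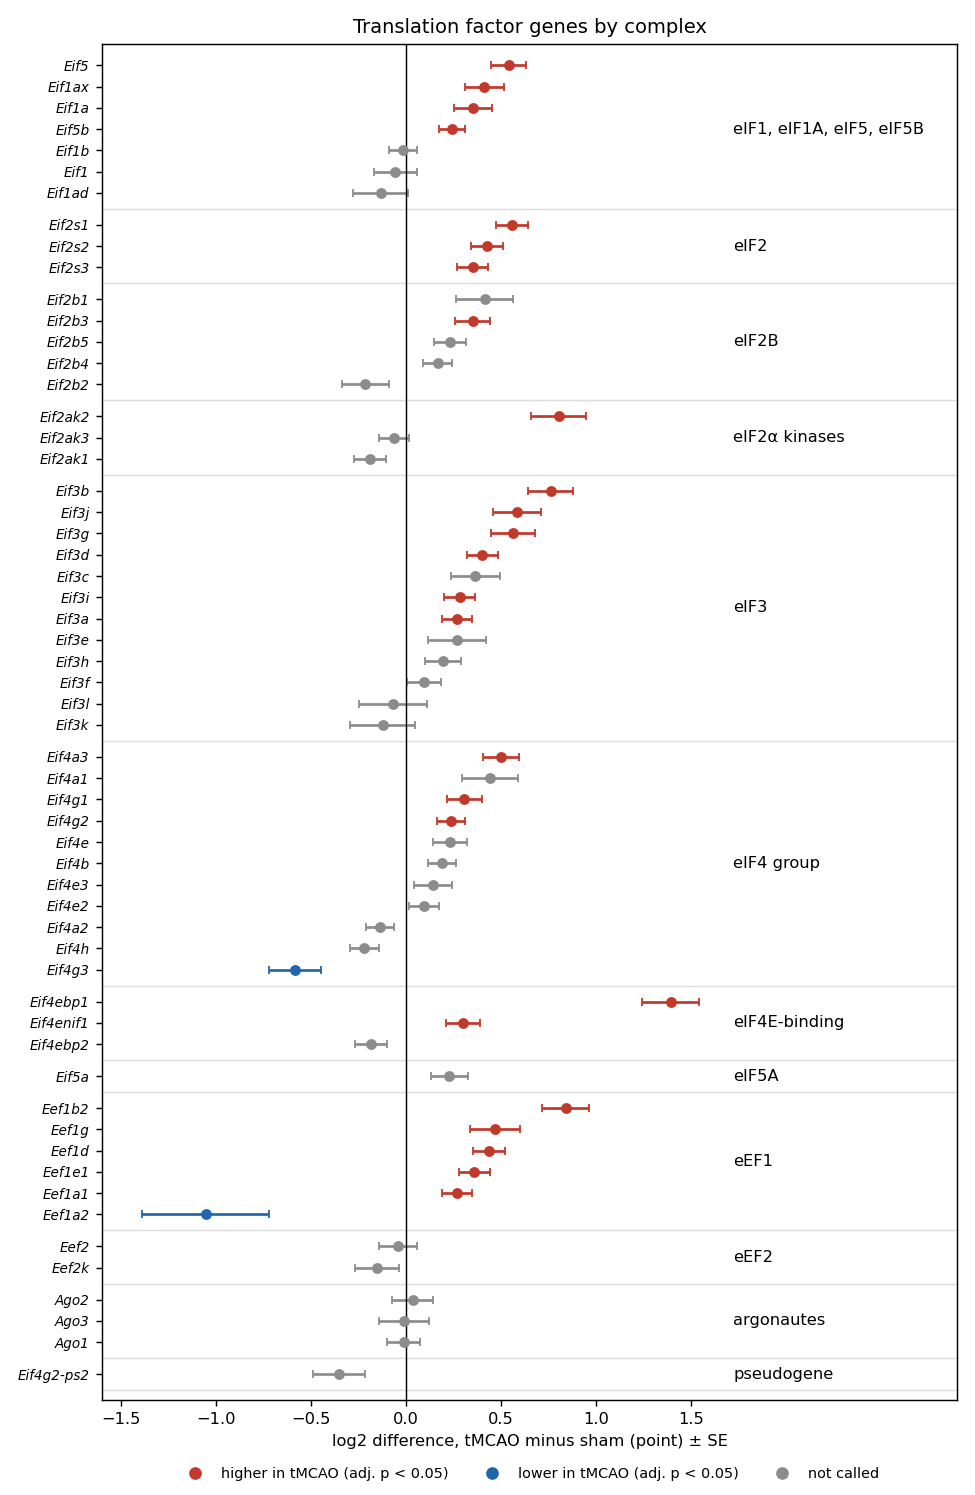
Log2 difference between tMCAO and sham cortex (points) with its standard error (bars, 4 animals per group) for the 57 genes, grouped by complex. Red points are the 25 genes called higher and blue points the 2 called lower; the 3 eIF2 subunits and 5 of 6 eEF1 genes lie to the right of 0, and Eef1a2 and Eif4g3 to the left.

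**Figure D2:**
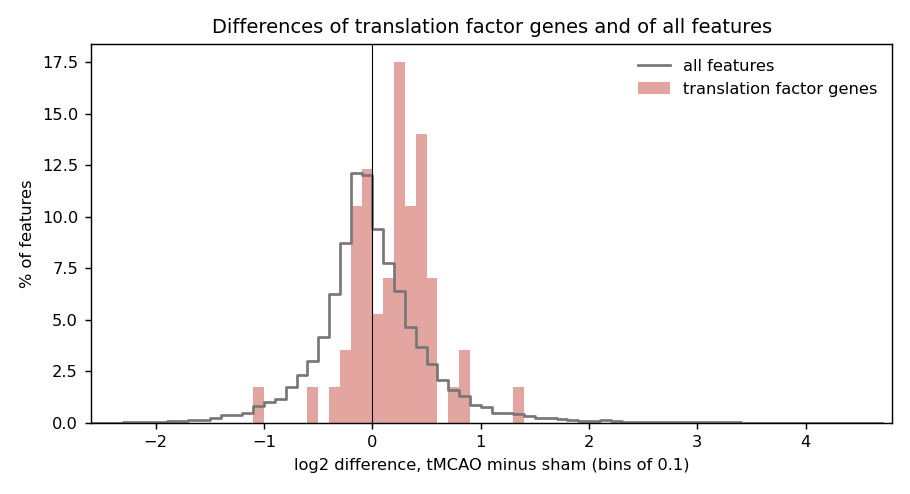
Share of features (in percent) per bin of 0.1 in the log2 difference between tMCAO and sham, for the 57 translation factor genes (bars) and for all 17928 features (line). The bars have their median at 0.23 and the line at -0.05.

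The sham animals against the pool, measured in the same fit, gave no called gene among the 57 by limma (2 at an unadjusted p under 0.05), and 9 called features in all (0.0502%). The Cy3 channel, which holds pool RNA on every array, was not equal between the groups: centred on each array's median, its log2 signal differed for 27 of the 57 genes (47.4%) and was higher on the tMCAO arrays in 24 of them, against 26.8% of all features called. With the Cy5 signal of the animals alone, 31 of the 57 genes were higher and 1 was lower, and the median difference was 0.40, where all features gave 2997 higher and 2711 lower and a median of -0.056; the count of rises and the median were both larger than with the ratio. Dye and sample were not swapped, and no label gives a hybridisation batch, so an array effect shared by a group cannot be told apart from the operation.

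**Figure D3:**
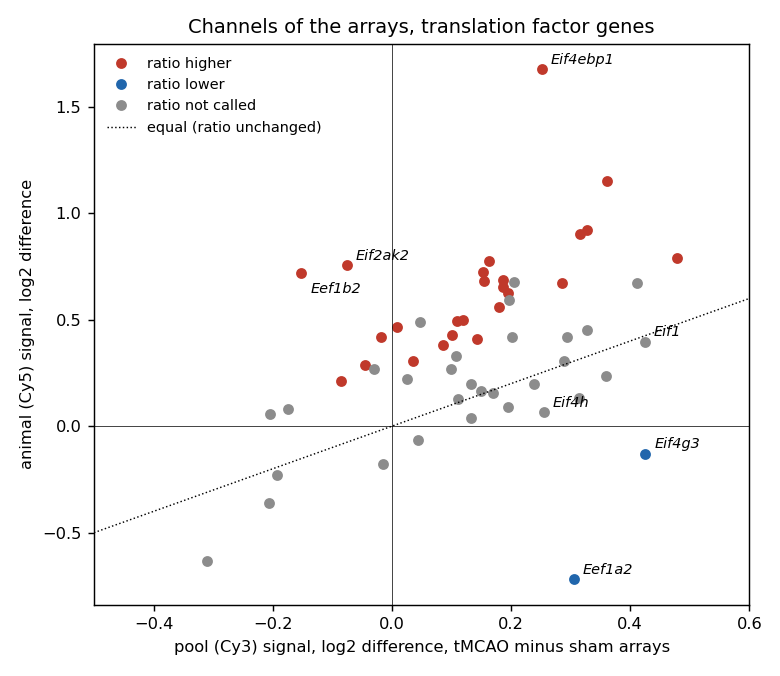
Log2 difference between tMCAO and sham arrays in the Cy5 signal of the animals (vertical) against that in the Cy3 signal of the pool (horizontal), each centred on the array median, for the 57 genes. Points above the dotted line have a higher ratio in tMCAO; Eif4g3 and Eif4h lie below it with a raised pool signal and little change of the animals' signal, and Eif4ebp1 lies highest at 1.68.

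The 3 subunits of eIF2, which carries the initiator tRNA, rose together, where 15.0% of all features were called higher. Eif2s1, the alpha subunit that the stress kinases phosphorylate, lay at -0.12, 0.015, -0.06 and 0.10 in the 4 sham animals and at 0.53, 0.67, 0.44 and 0.53 after tMCAO, a difference of 0.56 ± 0.08 (SE; adjusted p = 0.00418). Eif2s2, the beta subunit, lay at -0.13 to 0.02 in sham and 0.27 to 0.49 in tMCAO animals (0.43 ± 0.08, adjusted p = 0.00864). The GTP-binding gamma subunit Eif2s3 was read by 4 probes, all with a positive difference between 0.22 and 0.49, and their mean rose by 0.35 ± 0.08 (adjusted p = 0.0147). No sham animal overlapped a tMCAO animal in any of the 3 genes. The calls of all 3 were kept whichever array was left out; that of Eif2s3 ended with quantile-normalized ratios (adjusted p = 0.0894) and on its brightest probe (0.22, adjusted p = 0.104).

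Of eIF2B, the 5-subunit complex that recharges eIF2 with GTP, 1 gene was called (20%, all features 31.0%). Eif2b3, the gamma subunit, lay at 0, -0.07, -0.26 and -0.13 in sham and at 0.31, 0.20, 0.33 and 0.10 in tMCAO cortex, a rise of 0.35 ± 0.09 (adjusted p = 0.0217). The call was lost when sham replicate 3 or 4 or tMCAO replicate 1 or 3 was left out (adjusted p up to 0.0617). The groups did not overlap either in Eif2b1, the alpha subunit (0.41 ± 0.15, adjusted p = 0.0639), or in Eif2b5, the catalytic epsilon subunit (0.23 ± 0.09, adjusted p = 0.0691). Eif2b4 had a difference of 0.17 and Eif2b2 of -0.22, neither called. Without tMCAO replicate 4, Eif2b1 (also without tMCAO replicate 2), Eif2b4 and Eif2b5 were called higher (0.48, 0.20 and 0.28) and Eif2b2 lower (-0.33, adjusted p = 0.007). For Eif2b2 with all arrays, the pool signal was higher by 0.31 on the tMCAO arrays (limma, adjusted p = 0.00994). Its animal signal alone gave 0.13 (adjusted p = 0.546), which is not lower.

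Of the kinases that phosphorylate eIF2-alpha, Eif2ak2 rose and 2 others were not called (33.3% called, all features 31.0%). Eif2ak2 encodes PKR, which double-stranded RNA activates and interferon induces. It lay at 0.19, 0.08, -0.09 and 0.09 in sham and at 1.24, 0.56, 0.77 and 0.89 in tMCAO animals, which is 1.74-fold higher (0.80 ± 0.15, adjusted p = 0.00676). Its pool signal did not pass the test (-0.08, adjusted p = 0.563) and the animal signal alone gave 0.76, nearly as large as the ratio; quantile-normalized ratios gave 0.53 with no call (adjusted p = 0.0602). Eif2ak3, the PERK kinase of the endoplasmic reticulum, gave -0.07 ± 0.08 (adjusted p = 0.548), and its 2 probes gave -0.23 and 0.10. Eif2ak1, the heme-regulated kinase, gave -0.19 ± 0.08 (adjusted p = 0.108), and was called lower without tMCAO replicate 4 (adjusted p = 0.022). The 60 bases upstream of the Eif2ak2 start (GRCr8, chr6:21941094-21941153, plus strand, RefSeq) are shown because they hold the core of an interferon-stimulated response element (GAAA, 2 bases of any kind, GAAA), in capitals and starting 16 bases before the start; this motif was chosen after the rise was seen.

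Eif2ak2 upstream: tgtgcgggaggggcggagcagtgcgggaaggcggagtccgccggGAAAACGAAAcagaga

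On either strand, this core occurred within 250 bases before to 50 after the start in 3 of the 49 promoters found for the 57 genes (6.12%) and in 3.77% of all 27457 rat promoters of the table. The other 2 were those of Eif2s3 and Eif3k; Eif3k was not called (-0.12 ± 0.17). Of the 2 ATF-type motifs looked for, TGACGTCA was present in 1 (2.04%, all promoters 1.91%) and TGATGNAA in 2 (4.08%, all promoters 3.82%). No promoter was found for Ago2, Eef1d, Eif3e, Eif3h, Eif4b, Eif4e3, Eif4ebp1 and Eif4g2-ps2, so these were not searched for any motif.

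Among the factors of start-codon choice and subunit joining, 4 of 7 rose and none fell (limma; at an unadjusted p under 0.05, 4 higher and 0 lower). Over all features 15.0% were called higher and 16.0% lower. Eif5, the GTPase-activating protein of eIF2, lay at -0.15, -0.03, -0.008 and 0.03 in sham and 0.67, 0.53, 0.35 and 0.44 in tMCAO cortex, a difference of 0.54 ± 0.09 (adjusted p = 0.0057). Eif1ax and Eif1a encode forms of the scanning factor eIF1A. Eif1ax rose by 0.41 ± 0.10 (adjusted p = 0.0195), from sham ratios of -0.39 to -0.21 to tMCAO ratios of -0.11 to 0.32; against the pool alone its level in tMCAO cortex was 0.14, not called (adjusted p = 0.158). Eif1a rose by 0.35 ± 0.10 (adjusted p = 0.0293). Eif5b, the GTPase that joins the subunits, rose by 0.24 ± 0.07 (adjusted p = 0.0284), with 0.39 on the dimmer and 0.09 on the brighter of its 2 probes. The smaller calls depended on the number of animals: leaving out single arrays ended the call of Eif1ax for sham replicate 4 and tMCAO replicate 3 (adjusted p up to 0.0574), of Eif1a for sham replicates 1, 2 and 4 and tMCAO replicates 1 and 3 (up to 0.0756), and of Eif5b for each sham array and tMCAO replicates 2 and 3 (up to 0.0689).

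Eif1, which guards start-codon accuracy, and its paralog Eif1b were not called. Their differences were -0.06 ± 0.11 and -0.015 ± 0.07, and sham and tMCAO ratios overlapped in both. For Eif1 both channels were higher on the tMCAO arrays. The animal signal was higher by 0.40 (limma, adjusted p = 0.0335) and the pool signal, which holds pool RNA on every array, by 0.42 (adjusted p = 0.00565). Eif1ad gave -0.13 ± 0.14, and was called lower without tMCAO replicate 4 (-0.28, adjusted p = 0.0174). With all arrays its pool signal was higher by 0.195 (limma, adjusted p = 0.0316) and its animal signal alone gave 0.091 (adjusted p = 0.644).

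Of the 12 measured subunits of eIF3, the scaffold that keeps the small subunit open for the mRNA, 6 rose and none fell (limma; at an unadjusted p under 0.05, 7 higher and 0 lower), and the median difference was 0.27. All features gave 15.0% higher and 16.0% lower. Eif3b, a core subunit, lay at -0.28, -0.07, 0.01 and 0.09 in sham and at 0.73, 0.80, 0.83 and 0.44 in tMCAO cortex, 1.69-fold higher (0.76 ± 0.12, adjusted p = 0.00463). Eif3j, the loosely bound subunit that sits near the decoding site, rose by 0.58 ± 0.13 (adjusted p = 0.0118; sham 0.03 to 0.20, tMCAO 0.31 to 0.90). Eif3g, an RNA-binding partner of Eif3b, rose by 0.56 ± 0.12 (adjusted p = 0.01; sham -0.14 to 0.009, tMCAO 0.27 to 0.75). These 3 genes had no overlap between the groups, and the smallest tMCAO value of each was that of replicate 4.

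Eif3d, which binds the cap of some mRNAs, rose by 0.40 ± 0.08 (adjusted p = 0.0086). Its bright probe gave 0.82 and reached the ceiling of at least 1 array channel, and its dim one gave -0.02, so the mean understates the bright probe. Eif3i, a beta-propeller protein bound to Eif3b, rose by 0.28 ± 0.08 (adjusted p = 0.032) and Eif3a, the largest scaffold subunit, by 0.27 ± 0.08 (adjusted p = 0.0373). Both calls were lost without any of 6 arrays (adjusted p up to 0.079 and 0.0842): for Eif3i sham replicates 1, 3 and 4 and tMCAO replicates 1, 2 and 3, for Eif3a all 4 sham replicates and tMCAO replicates 2 and 3. Eif3c was close to the threshold (0.36 ± 0.13, adjusted p = 0.0611), with 0.63 on its bright probe, which was called on its own (adjusted p = 0.0181). The remaining measured subunits gave no call: Eif3e 0.27 ± 0.15, Eif3h 0.19 ± 0.10, Eif3f 0.09 ± 0.09, Eif3l -0.07 ± 0.18 and Eif3k -0.12 ± 0.17. Called and uncalled subunits were not tested against each other. The call of Eif3j ended with quantile-normalized ratios (0.31, adjusted p = 0.0632).

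Of the eIF4 factors, which bind the cap and unwind the leader of the mRNA, 3 of 11 rose, 1 fell and 7 were not called. The called share was 36.4%, near the 31.0% of all features. Eif4a3 was the highest of them: it lay at -0.05, -0.07, -0.03 and -0.17 in sham and at 0.65, 0.30, 0.37 and 0.36 in tMCAO cortex (0.50 ± 0.10, adjusted p = 0.00794). Its product is a helicase of the exon junction complex rather than of cap-dependent initiation, and its signal reached the ceiling of at least 1 channel. Of the 2 initiation helicases, Eif4a1 missed the threshold (0.44 ± 0.15, adjusted p = 0.0525; sham -0.14 to 0.34, tMCAO 0.16 to 0.72) and passed it without sham replicate 4 or tMCAO replicate 1 (adjusted p down to 0.0231). Eif4a2, the form that is abundant in brain, gave -0.14 ± 0.07 (adjusted p = 0.182). Its bright probe alone was called lower (-0.36 ± 0.09, adjusted p = 0.0155), while the dim one, at a mean signal of 0.0788, gave 0.09. On the bright probe the pool signal was 8.25 to 9.24 on the sham and 9.76 to 10.5 on the tMCAO arrays. The animals' signal there was 7.62 to 8.3 and 6.43 to 8.02, so part of the fall lay in the pool channel. For the gene, the animal signal alone gave -0.066 (limma, adjusted p = 0.698).

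Of the scaffold proteins of the cap complex, Eif4g3 was called lower and Eif4g1 and Eif4g2 higher. Eif4g3 lay at -0.19, 0.05, 0.05 and 0 in sham and at -0.83, -0.78, -0.58 and -0.24 in tMCAO cortex, 1.5-fold lower (-0.58 ± 0.14, adjusted p = 0.015). Most of that fall lay in the pool channel: the pool signal of Eif4g3 was higher by 0.42 on the tMCAO arrays (adjusted p = 0.00997), and the animal signal alone gave -0.13 (adjusted p = 0.429), so the call ended without the pool, as it did with quantile-normalized ratios (-0.34, adjusted p = 0.0847). Eif4g1 rose by 0.30 ± 0.09 (adjusted p = 0.0372) on 3 dim probes with a mean signal of 0.112, where the rounding of the intensities alone allows 0.025 to 0.58. Eif4g2, the related protein that does not bind eIF4E, rose by 0.23 ± 0.07 (adjusted p = 0.042). Leaving out any array but tMCAO replicate 4 ended the calls of Eif4g1 and Eif4g2 (adjusted p up to 0.089 and 0.0952), and the animal signal alone gave no call for Eif4g1 (adjusted p = 0.104).

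The cap-binding proteins were not called: Eif4e gave 0.23 ± 0.09 (adjusted p = 0.0828), Eif4e2, the repressive 4EHP, 0.09 ± 0.08 and Eif4e3 0.14 ± 0.10. The bright probe of Eif4e2 was called on its own (0.38 ± 0.10, adjusted p = 0.0197). The helicase stimulators were not called: Eif4b gave 0.19 ± 0.08 (adjusted p = 0.0877) and Eif4h -0.22 ± 0.08 (adjusted p = 0.0588). In Eif4h, sham animals lay at -0.09, 0.04, -0.07 and 0.02 and tMCAO animals at -0.37, -0.20, -0.22 and -0.18, with no overlap and with negative differences on all 4 probes, but the animal signal alone gave 0.065 (adjusted p = 0.629) and the pool signal 0.26 (adjusted p = 0.0262). Without tMCAO replicate 4, Eif4b and Eif4e were called higher and Eif4h lower. With all arrays, the animal signal alone gave 0.42 for Eif4b (limma, adjusted p = 0.016) but 0.056 for Eif4e (adjusted p = 0.71). The pool signal of Eif4e gave -0.20 (adjusted p = 0.0372), so most of its positive ratio lay in the pool channel.

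The largest change of the family was that of Eif4ebp1, which encodes 4E-BP1, the repressor that binds eIF4E unless mTORC1 phosphorylates it. Sham animals lay at -0.02, 0.14, 0.05 and 0.05 and tMCAO animals at 1.66, 1.65, 1.49 and 0.98. All tMCAO animals lay far above the sham animals, and replicate 4 lay below the other 3. Eif4ebp1 was 2.62-fold higher (1.39 ± 0.15, adjusted p = 0.00194), and the call held in all 19 alternatives tried, at 0.92 to 1.68. Eif4enif1, the shuttling eIF4E partner 4E-T of processing bodies, rose by 0.30 ± 0.09 (adjusted p = 0.0379); the call was lost without sham replicate 1, 2 or 3 or tMCAO replicate 2 or 3 (adjusted p up to 0.0951). Eif4ebp2, known in mouse as the main 4E-BP of brain, gave -0.19 ± 0.08 (adjusted p = 0.116) at a mean signal of 0.065, where rounding allows -0.63 to 0.25; it was called lower without tMCAO replicate 4 (-0.25, adjusted p = 0.0101).

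**Figure D4:**
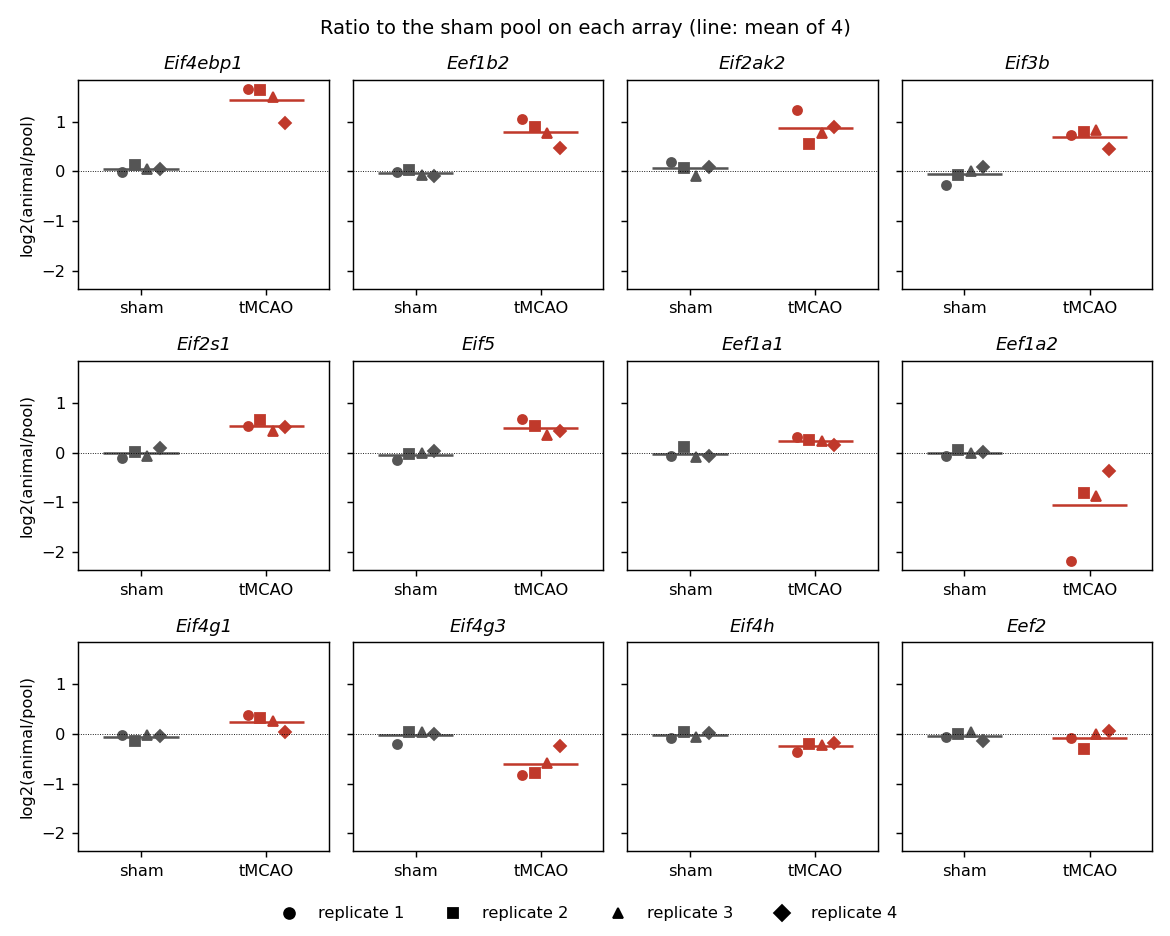
Log2 ratio of each animal to the sham pool for 12 translation factor genes, with sham animals in grey, tMCAO animals in red, one symbol per replicate number and a line at each group mean. The 4 tMCAO values of Eif4ebp1 sit at 0.98 to 1.66 above sham values of -0.02 to 0.14, those of Eef1a2 spread from -2.18 to -0.36, and those of Eef2 overlap the sham values.

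All 6 genes of the eEF1 group were called, 5 higher and 1 lower, where 31.0% of all features were called. Eef1b2, the beta subunit of the exchange factor that recharges eEF1A, lay at -0.02, 0.03, -0.08 and -0.10 in sham and at 1.06, 0.90, 0.77 and 0.47 in tMCAO cortex, 1.79-fold higher (0.84 ± 0.12, adjusted p = 0.00415); it was read by 1 probe, which reached the ceiling in 1 channel, so its fold is approximate. The other subunits rose too: Eef1g, the gamma subunit, by 0.47 ± 0.13 (adjusted p = 0.0276) and Eef1d, the delta subunit, by 0.44 ± 0.08 (adjusted p = 0.00806). Eef1d had 0.93 on its bright probe and -0.06 on its dim one. Eef1e1, whose product AIMP3 belongs to the multi-tRNA synthetase complex, rose by 0.36 ± 0.08 (adjusted p = 0.0134). Eef1b2, Eef1d and Eef1e1 kept their calls whichever array was left out; Eef1g lost its call without sham replicate 1, 3 or 4 or tMCAO replicate 1 or 3 (adjusted p up to 0.0745).

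The 2 isoforms of eEF1A, the tRNA-delivering GTPase, were called in opposite directions. Eef1a1, the form of most tissues, lay at -0.08, 0.12, -0.08 and -0.08 in sham and at 0.31, 0.25, 0.24 and 0.16 in tMCAO cortex (0.27 ± 0.08, adjusted p = 0.0353). Its bright probes gave 0.51 and 0.41 and its dim one -0.11; 2 further spots near the ceiling had missing values and were left out. Eef1a2, the form known from mature neurons and muscle, lay at -0.07, 0.05, -0.007 and 0.02 in sham and at -2.18, -0.81, -0.88 and -0.36 in tMCAO cortex, 2.08-fold lower (-1.06 ± 0.33, adjusted p = 0.0423). Every tMCAO animal was below every sham animal in Eef1a2, but replicate 1 lay far below the other 3, and without it the difference was -0.68. The Eef1a2 call was lost without any 1 of the sham replicates or tMCAO replicate 2 or 3 (adjusted p up to 0.0941) and with the animal signal alone (-0.72, adjusted p = 0.111). That of Eef1a1 was lost without sham replicate 1, 3 or 4 or tMCAO replicate 1, 2 or 3 (up to 0.0887) and with the animal signal alone (0.21, adjusted p = 0.156).

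Many mRNAs of the translation machinery start with a run of pyrimidines (a terminal oligopyrimidine or TOP sequence) through which mTORC1 and Larp1 act on their translation. The first transcribed bases of 6 of the genes are shown for that reason, from 5 bases before to 19 after the annotated start base (GRCr8, RefSeq), with the longest run of C and T in capitals. They were picked as the 4 promoters with a run of 8 or more in this window and the 2 genes that fell. They lie at chr9:72074086-72074110 (plus strand, Eef1b2), chr8:88225050-88225074 (minus, Eef1a1), chrX:62933680-62933704 (minus, Eif2s3), chr1:172369057-172369081 (plus, Eif3f), chr3:188652614-188652638 (minus, Eef1a2) and chr5:155481373-155481397 (plus, Eif4g3).

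Eef1b2: gtcccggCCCTTTTTCTCCCTCagc
Eef1a1: cgTTCTTTTTCgcaacgggtttgcc
Eif2s3: gagcaTTTTCCTTTTCTCTCTgagc
Eif3f: ccgttctagCCTCTCTCTTTCTCgg
Eef1a2: catctctgcagctgcgTCCTCTCgg
Eif4g3: gTCCTgccggactgctggaggcggc

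The longest run was 15 bases in Eef1b2, 9 in Eef1a1, 16 in Eif2s3 and 14 in Eif3f, and 7 in Eef1a2 and 4 in Eif4g3. Of the 4 genes with a run of 8 or more, 3 rose and Eif3f did not pass the test (0.09). A run of that length was present in 4 of 49 promoters (8.16%), against 8.39% of all promoters. This counts a run anywhere in the window around the annotated start. It is not a count of TOP sequences, whose share was not measured. The E-box CACGTG, the site of Myc-type factors and the same on both strands, was present in 10 of the 49 promoters (20.4%) and in 6.65% of all; the promoters were not matched for base composition. The 10 genes were Eef2, Eef2k, Eif1b, Eif3a, Eif3b, Eif3f, Eif4e, Eif4g1, Eif4h and Eif5a, of which Eif3a, Eif3b and Eif4g1 were called, all higher. The windows of Eif3b (chr12:19334792-19334851, minus strand) and Eif4e (chr2:229740647-229740706, plus strand) are given as the pair in which a called gene and an uncalled gene carry the same motif, with the motif in capitals.

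Eif3b upstream: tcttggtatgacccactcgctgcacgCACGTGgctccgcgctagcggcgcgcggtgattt
Eif4e upstream: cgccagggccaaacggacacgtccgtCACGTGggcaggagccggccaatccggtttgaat

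Translocation and eIF5A gave no call. Eef2, the translocase, lay at -0.06, -0.004, 0.05 and -0.14 in sham and at -0.09, -0.30, 0.003 and 0.06 in tMCAO cortex (-0.04 ± 0.10, adjusted p = 0.75), with 0.14 on its bright probe. Eef2k, the kinase that inhibits eEF2, gave -0.15 ± 0.11 (adjusted p = 0.324) at a mean signal of 0.0875. Eif5a, which helps ribosomes past difficult peptide bonds, gave 0.23 ± 0.10 (adjusted p = 0.105). The rule also took in 4 genes that are not translation factors by name today: the argonautes Ago1 (-0.014), Ago2 (0.03) and Ago3 (-0.011), small-RNA-binding proteins listed under old Eif2c symbols, and the pseudogene Eif4g2-ps2 (-0.35, adjusted p = 0.0834). None of these 4 was called; without them the counts were 25 higher and 2 lower of 53.

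Pairs of paralogs were compared within each animal, as the difference between their log2 ratios. The 16 pairs were written down with the values known, and an exact permutation test over the 70 splits of the 8 arrays cannot give a p below 0.0286. Eef1a1 minus Eef1a2 was -0.02 ± 0.07 (SD, n = 4) in sham and 1.30 ± 0.83 in tMCAO cortex, a shift of 1.32 ± 0.42 (SE). Eif4ebp1 minus Eif4ebp2 shifted by 1.58 ± 0.22, Eif2ak2 minus Eif2ak1 by 0.99 ± 0.17, and Eif2ak2 minus Eif2ak3 by 0.87 ± 0.16. Eif4g1 minus Eif4g3 shifted by 0.89 ± 0.22, Eif4g2 minus Eif4g3 by 0.82 ± 0.18 and Eif4a3 minus Eif4a2 by 0.64 ± 0.08. In each of these 7 pairs the groups did not overlap (two-sided exact permutation p = 0.0286, adjusted over the 16 pairs 0.0654, which is above 0.05). That p is the lowest the test can give. The pairs use the same values as the calls and were written with them known, so the test adds no support to the calls. The shift of Eif4a1 minus Eif4a2 was 0.58 ± 0.18, with overlapping groups (two-sided exact permutation p = 0.0571, adjusted 0.114). For the other 8 pairs, among them Eif1 with Eif1b and Eif4g1 with Eif4g2, the shifts ran from -0.13 to 0.14 and the smallest exact permutation p was 0.229; these data do not show that their members act alike.

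Probe brightness went with the calls. Of the 44 probes with a mean Cy5 signal above 1, 19 were higher and 3 lower (43.2% and 6.82%; all probes of that signal 21.7% and 21.8%). Of the 27 probes between 0.2 and 1, 11 were higher and 1 was lower (all such probes 18.2% and 18.0%). Of the 22 dimmer probes, 2 were higher and none was lower by limma (2 and 1 at an unadjusted p under 0.05; all such probes 8.44% and 9.95%). Among the 25 genes with several probes, the brightest gave a larger difference than the mean of the others in 17, the probes had both signs in 12, and in no gene were 2 probes called in opposite directions. Probe by probe, 32 of 93 were higher, 4 lower and 57 not called, where all 23376 probes gave 14.5% and 15.1%.

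**Figure D5:**
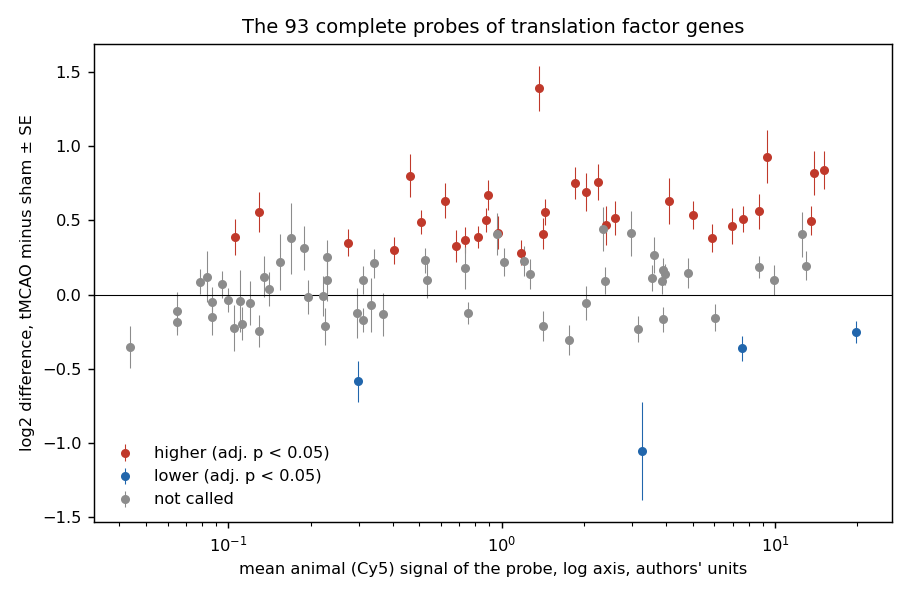
Log2 difference between tMCAO and sham (vertical, with standard error) of the 93 complete probes against their mean Cy5 signal (horizontal, log axis). Only 2 of the 22 probes below a signal of 0.2 were called, both higher; the 4 probes called lower, of Eif4g3, Eef1a2, Eif4a2 and Eif4h, lie at signals of 0.299, 3.27, 7.57 and 19.8.

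The animals differed in the size of the response. tMCAO replicate 4 lay between the groups on the leading principal component of all features (69.7% of the variance; sham -36.8 to -34.3, tMCAO 57.5, 51.1, 41.9 and -6.72). In 75.5% of all 5552 called features this animal had the smallest response of the 4; among the 27 called translation factor genes it did so in 15 (55.6%). Its response was a median 0.47 of the mean of the other 3 animals over all called features and 0.66 over the called translation factor genes; this difference was not tested. Without this animal 30 of the 57 genes were higher and 7 lower, the 27 calls all remained and 10 were added, and 3907 features were higher and 4317 lower in all. By the p-values of the authors' deposited table, 0, 0, 1 and 0 of the 93 probes differed from the pool at p under 0.01 in sham replicates 1 to 4 and 32, 34, 24 and 15 in tMCAO replicates 1 to 4, where the 4 tMCAO arrays gave 35.5%, 33.8%, 29.1% and 11.8% of all probes.

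Of the genes of neighbouring steps, most of those for termination and for poly(A) binding were called higher, against 15.0% of all features. Of 5 measured termination and recycling genes, 4 rose, among them Etf1, the release factor eRF1, at 0.60 ± 0.09 (adjusted p = 0.00376), Hbs1l, a ribosome rescue GTPase, at 0.43 ± 0.10 (adjusted p = 0.0148), and Gspt1, the release factor eRF3, at 0.35 ± 0.08 (adjusted p = 0.0117). Of 4 genes of poly(A)-binding proteins and partners, 3 rose: Pabpc1, which links the mRNA tail to eIF4G, by 1.04 ± 0.18 (adjusted p = 0.00578), Pabpc4 by 0.84 ± 0.14 (adjusted p = 0.00593) and Larp1 by 0.40 ± 0.09 (adjusted p = 0.0132). Paip1, a partner of the poly(A)-binding protein, gave -0.52 ± 0.21 and was not called (adjusted p = 0.0908). Pabpc1 lay at -0.18 to 0.07 in sham and 0.53 to 1.45 in tMCAO animals, with no overlap. With quantile-normalized ratios Hbs1l, Gspt1 and Larp1 were not called (adjusted p = 0.146, 0.0817 and 0.126), and the brightest probe of Hbs1l gave 0.16 (adjusted p = 0.233).

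The genes of mTORC1 and S6 kinase signalling gave 4 of 10 lower and none higher by limma, where all features gave 16.0% and 15.0%. At an unadjusted p under 0.05 the counts were also 4 and 0. The list holds both subunits and inhibitors of mTORC1, and it was not tested against the translation factors. Mlst8, an mTOR-bound subunit, fell by 0.69 on the log2 scale (± 0.14, adjusted p = 0.00975), from sham ratios of -0.07 to 0.05 to tMCAO ratios of -0.99 to -0.28. Deptor, an mTOR inhibitor, fell by 0.82 (± 0.14, adjusted p = 0.00587) at a mean signal of 0.0512, where rounding allows -1.35 to -0.32, and was not called with quantile-normalized ratios (-0.43, adjusted p = 0.0574). Pdcd4, an inhibitor of eIF4A, fell by 0.73 (± 0.19, adjusted p = 0.0229), with overlapping groups, and lost its call without any of sham replicates 2, 3 and 4 and tMCAO replicates 1, 2 and 3 (adjusted p up to 0.0648) and with the animal signal alone (-0.64, adjusted p = 0.0514). Mtor itself gave -0.11 ± 0.08. Of the genes of the eIF2-alpha phosphatase and ATF4 branch, which is switched on when eIF2-alpha is phosphorylated, 4 of 10 rose. The median difference of the 10 was 0.1, and 15.0% of all features were called higher. Activity of the branch was not tested. Nupr1 rose by 1.76 ± 0.21 (adjusted p = 0.00244), the pseudokinase Trib3 by 1.73 ± 0.18 (adjusted p = 0.00171), Ddit3, the factor CHOP, by 0.69 ± 0.10 (adjusted p = 0.00407) and Atf4 itself by 0.49 ± 0.14 (adjusted p = 0.0274). Asns, Chac1, Atf3, Sesn2, Ppp1r15a and Ppp1r15b were not called. With quantile-normalized ratios Trib3 gave 0.71 (adjusted p = 0.155) and Ddit3 0.35 (adjusted p = 0.0631), and neither was called. No gene was called among 3 eIF4E kinases and repressors, 3 mitochondrial translation factors, Dhps of eIF5A hypusination and Mcts1 of non-canonical initiation; at an unadjusted p under 0.05, limma gave 1 of the eIF4E kinases and repressors higher, Dhps lower and 0 of the others.

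Marker mRNAs of several cell types differed between the groups, where 15.0% of all features were called higher and 16.0% lower. In whole cortex, fewer cells of a type and less RNA per cell cannot be told apart. All 6 neuron markers fell, with a summed Cy5 signal of 39.9 to 43.1 on the sham and 21.9 to 32.6 on the tMCAO arrays, and 7 of 8 microglia and macrophage markers rose, with sums of 9.64 to 9.74 and 15.1 to 31.6. Of 6 astrocyte markers Gfap, the brightest (mean signal 18.4), rose by 1.42, 2 fell and 4 had negative differences (sums 15.4 to 24.2 and 23.8 to 28.3, mostly Gfap), of 5 endothelial markers 3 rose (1.42 to 1.8 and 1.94 to 5.4) and of 5 meningeal markers 4 rose (2.17 to 2.62 and 3.06 to 5.77). Neither of 2 neutrophil markers (0.29 to 1.67 and 0.36 to 5.93) and none of 6 oligodendrocyte markers (24.5 to 30.6 and 20.5 to 38.7) was called by limma; at an unadjusted p under 0.05 these were 0 and 2. Of 5 markers of striatal neurons 4 fell (5.85 to 7.8 and 3.22 to 5.03); a striatal share of the dissected tissue was not measured. The uncalled endothelial markers, Flt1 and Slco1a4, gave -0.141 and -0.098. No marker was at 0. The part of these shifts in the rise of the translation factors, or in the fall of the neuronal form Eef1a2, was not tested.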

How the data were processed

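Total RNA of the cortex of 8 rats was amplified from 100 ng in 2 rounds and hybridised to 2-colour Agilent arrays, per the labels' protocols, and read with Agilent Feature Extraction 8.5.1.1, per the submitters' processing notes. Per the file headers, the deposited table gives a normalized intensity of each channel and a p-value for their difference; the scaling and the error model are not given in the sources used here. Deposited intensity values had array medians of 0.22 to 0.23 and were mostly rounded to 2 decimals, and 27.0% to 30.1% of the animals' values lay below 0.1, where ratios are coarse. Between 23434 and 23565 probes carried a value on an array. A further deposited table holds log10 ratios of the same values, equal within 0.00498. In 9 of 16 channels the brightest intensities shared a ceiling, the lowest at 19.2; probes of Eef1a1, Eef1b2, Eif3d, Eif4a3 and Eif4h reached it.

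From the intensities, log2(Cy5/Cy3) was computed for 23376 complete probes. Probes were averaged per symbol, updated with the RefSeq gene list of GRCr8 (8 of the 57 symbols changed), which gave 17928 features; 32 of the 57 genes had 1 probe. Of the 57 genes, 33 have numbered pseudogenes in RefSeq (20 for Eef1a1), and cross-hybridisation was not tested. A mean per group was fitted with limma 3.58.1 in R 4.3.3 (lmFit, eBayes, 2-sided, Benjamini-Hochberg over all features; called at an adjusted p under 0.05), and the pipeline was checked on simulated data. Standard errors come from that fit. Rounding ranges shift every intensity by 0.005 so that the difference becomes as low or as high as it can. The number of arrays limits the precision; the 4 animals of a group are separate biological replicates, per the labels. Promoters of 300 bases from RefSeq were found for 49 genes.

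Every gene that met the symbol rule is reported by complex. Values of single animals are given for up to 4 called genes of a complex by size, called genes against its majority and up to 2 uncalled ones by signal; outside the family, up to 3 called genes of a list. Other genes with single values, such as Eef1a1, and the genes close to the threshold were chosen after their values were seen. The genes and lists were chosen with earlier results of these data known. Alternatives were other normalizations, single channels, filters, weights, probe rules, a stricter threshold, a replicate block and leaving out each array; leaving out the argonautes and the pseudogene, and probes below a signal of 0.1, were added after seeing the data.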

Additional observations from a re-analysis of the deposited data

Results flagged for a closer look

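Within the groups of 4 animals, 7 of 114 sets of values (2 groups for each of 57 genes) held a single animal far from the other 3 by Dixon's test; chance alone gives about 1 in 20. The log2 ratios of these animals were 0.12 in sham replicate 2 for Eef1a1 and -0.36 in the same animal for Eef2k, -0.14 in sham replicate 1 for Eif3g, and 0.20 in sham replicate 3 for Eif3j. The same animal, sham replicate 3, stood apart at -0.18 for Eif4e2 and at 0.02 for Eif4g2. In the tMCAO group only replicate 4 stood apart, at 0 for Eif4ebp2, whose intensities in that animal rounded to equal values in both channels. The dim signals of Eef2k (mean 0.0875) and Eif4ebp2 (mean 0.065) make single ratios coarse.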

How the results depend on the processing

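Of the 27 called genes, no difference changed its sign in any of 19 alternatives each: 397 of 513 values kept the call and 116 lost it. Eif1, not called on the ratio, was higher by 0.40 with the animal signal alone, the only reversed sign that passed a test. Its pool signal was higher by 0.42 on the same arrays. Counts are given as translation factor genes higher and lower, then all features higher and lower. Quantile normalization of the ratios gave 14 and 1, and 1537 and 1427, and ended 12 of the 27 calls (Eef1a1, Eif1a, Eif2ak2, Eif2s3, Eif3a, Eif3i, Eif3j, Eif4enif1, Eif4g1, Eif4g2, Eif4g3 and Eif5b). It also removes the wider spread of ratios on the tMCAO arrays. The animal signal alone gave 31 and 1, and 2997 and 2711. The pool alone as control gave 33 and 8, and 4056 and 4723. Array weights gave 31 and 6, and 4062 and 4637. Every probe on its own gave 32 and 4, and 3380 and 3540. The brightest probe per gene gave 23 and 4, and 2845 and 2808. Probes with a signal of at least 0.1 gave 29 and 4, and 2741 and 2926. An adjusted p under 0.01 left 10 and 0 by limma (32 and 5 at an unadjusted p under 0.05), and 1083 and 867. A block for the replicate number gave 13 and 3, and 2029 and 1953. Deviations of same-numbered animals had correlations of 0.04, -0.04, 0.016 and -0.046. These show no pairing by number, but cannot exclude a shared batch, which no label gives. Leaving out 1 array gave 14 to 30 genes higher and 1 to 7 lower, and 1811 to 3907 and 1701 to 4317 features; 14 came without tMCAO replicate 3, and 16 without sham replicate 1, 3 or 4. Median centring, trended robust variances, leaving out the dimmest features and leaving out the argonautes and pseudogene moved no count by over 1.5 times. The causes were not tested. The deposited log10 ratios hold the same values, so no other result comes from them. Rounding and the few animals limit the dim genes.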
